A study of Mus musculus with 9 samples.

Results

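Gastrocnemius muscle of dystrophic mdx mice given vehicle was compared with gastrocnemius of wildtype mice given vehicle, gene by gene, from polyadenylated RNA sequenced on an Ion Torrent Proton. The comparison uses 6 of the 9 libraries of the study, 3 for each genotype, taken by the group named in their labels. Both genotypes carry the strain label C57BL/6, and both received vehicle only. The 3 remaining libraries come from mdx mice given GTx-026, the drug under study, at 10 mg/kg under the skin. In the fit they enter only the estimate of the spread between libraries. They also took part in the rescaling and in the choice of the genes tested. The study's design gives 3 mice to a group, but no label ties a library to an animal, and nothing in the labels gives age or sex, so each p-value here reflects how far single libraries differ, which may be technical. A library number (1 to 3) is a name only and pairs no library with another.

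The mdx mouse lacks full-length dystrophin because of a premature stop in the gene Dmd. Dystrophin ties the actin cytoskeleton of the muscle fibre to a complex of membrane proteins and through it to the matrix outside. Without it fibres break down and regenerate, and phagocytes, matrix-making cells, satellite cells and new synaptic sites follow. RNA of a whole muscle mixes all of these, so in each result below fewer cells of a type and less RNA per cell cannot be told apart.

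Levels are given as CPM, a gene's share of the reads of its library (counts per 1000000), after rescaling the libraries against each other. A log2 fold change is the difference, mdx minus wildtype, on the log2(CPM + 1) scale, with the standard error (SE) of the model, and is smaller than the true change in low genes. A gene is said to have risen or fallen where limma's adjusted p over all 15372 tested genes (Benjamini-Hochberg, two-sided) was below 0.05, and groups are called separate where all 3 mdx libraries lay above, or all below, all 3 wildtype libraries.

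The libraries held an estimated 25.1 M to 35.9 M listed reads in the 6 vehicle samples. Library 1 of the mdx vehicle group differed from the other 5. In 466 genes it was the highest of the 6 and in 286 the lowest, with over 1 log2 unit to each of the other mdx libraries. The other libraries reached at most 110 and 57 genes by the same rule. Its median correlation with its own group was 0.945, against 0.959 or more in the other 8 libraries of the study. It was high in leukocyte genes and low in genes of slow and oxidative fibres. Several predicted transcripts were low there too, such as LOC101056014 at 4263 CPM, against 33100 and 45437 CPM in mdx libraries 2 and 3. That transcript also varied in wildtype, from 12876 to 37419 CPM. Skeletal muscle genes themselves were abundant in all 6 libraries, and Acta1, the actin of adult skeletal muscle, ran from 27041 to 48294 CPM. Calls, and counts and medians of gene lists, are therefore given with and without this library.

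The leukocyte genes that were high there included Coro1a, a coronin of lymphocytes and myeloid cells. It was at 261 CPM in mdx library 1, 6.31 and 13.8 CPM in mdx libraries 2 and 3, and 92.7, 12.2 and 2.62 CPM in the wildtype libraries 1 to 3. Cd52, a surface peptide of lymphocytes, was at 110, 2.09 and 5.84 CPM in mdx and at 37.8, 5.02 and 0.982 CPM in wildtype. In both genes wildtype library 1 was the second highest, so the pattern crossed the genotypes. The same order of these libraries held for Rac2, the haematopoietic Rac GTPase, at 132 CPM in mdx library 1 and 36.8 CPM in wildtype library 1, and for the chemokine gene Ccl5 at 48.5 and 10.1 CPM. By the same measure Acap1, Ccl21a, Il2rg, Gm1987, LOC101056305 and LOC102641613 completed the 10 genes that stood highest in mdx library 1 against the other mdx libraries. The T cell chain Cd8a was at 37.4 and 13.2 CPM in these 2 libraries and at 3.63 CPM or less in the 4 others.

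Among the genes low in mdx library 1 the slow myosin heavy chain Myh7 was at 65.1 CPM there, against 3120 and 2468 CPM in mdx libraries 2 and 3. The wildtype libraries ranged from 316 to 3912 CPM, so this gene varied widely in both genotypes. Myl3, the slow and ventricular essential light chain, was at 14.3, 828 and 502 CPM in mdx and at 148, 1369 and 608 CPM in wildtype. The other slow-fibre genes among the 10 lowest were Myh6, Myl2, Tnni1, Myoz2, Tnnt1 and Tnnc1, and the predicted transcripts were LOC105243459 and Gm33916. Ankrd2, a stretch-responsive protein of the Z-disc and nucleus, was at 7.78 CPM in mdx library 1 and between 105 and 164 CPM in the other 5. The fast IIA myosin Myh2 was at 174 CPM there and at 1770 CPM or more elsewhere, and the globin Hbb-bs was at 5.06 CPM there and at 75.4 CPM or more elsewhere.

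**Figure D1:**
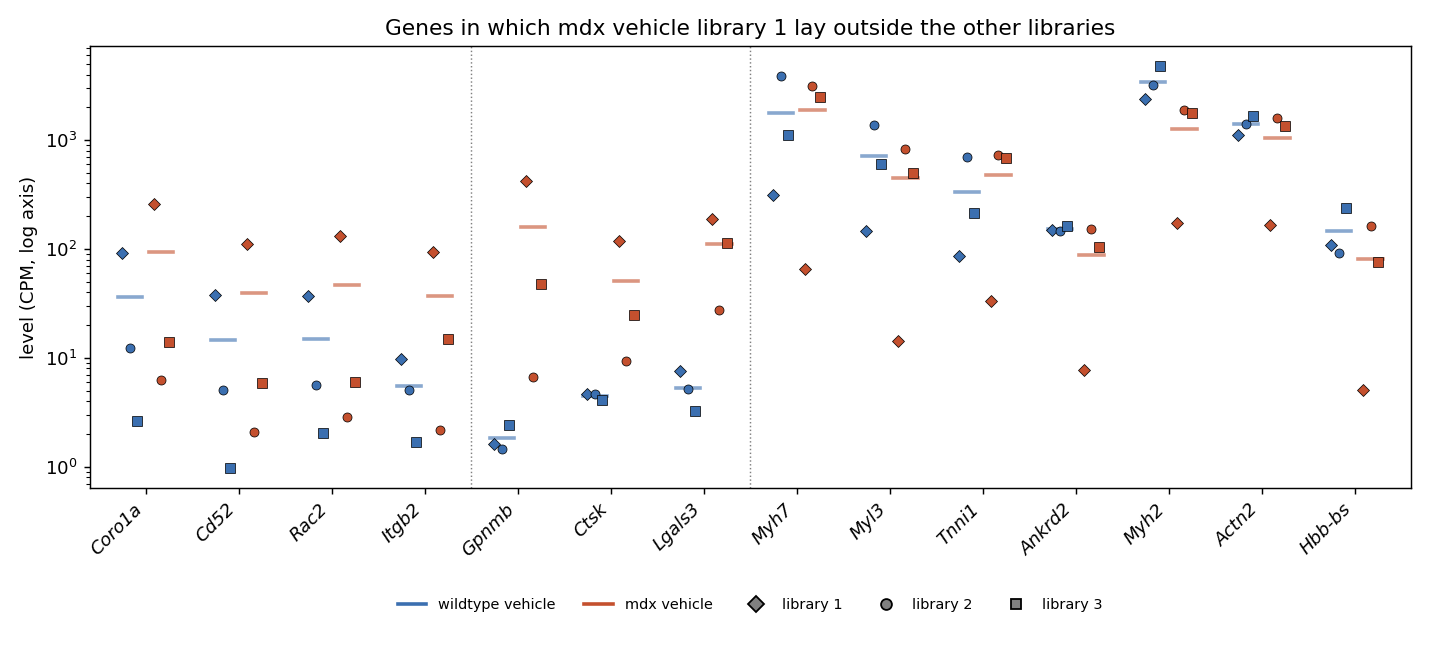
Levels (CPM, log axis) of genes in which mdx vehicle library 1 (orange diamond) lay outside the other 5 vehicle libraries; points are libraries, bars are group means, and dotted lines part leukocyte, phagocyte and fibre or red-cell genes. In Coro1a, Cd52 and Rac2 wildtype library 1 (blue diamond) was the next highest, whereas Gpnmb and Ctsk were higher in every mdx library than in any wildtype library.

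With all libraries 29 genes rose in mdx, which is 0.189% of the genes tested, and 23 fell, which is 0.15%. Without mdx library 1 the counts were 36 (0.234%) and 20 (0.13%), and 40 genes, 23 higher and 17 lower, were called in both fits. All 52 called genes had separate groups, and their fold changes lay between 1.01 and 4.06 in size on the log2 scale. Over all genes the median log2 fold change was 0.01, and 7857 genes were higher and 7515 lower. The groups were separate in 1225 genes that were higher in mdx (7.97% of the tested genes) and 1305 that were lower (8.49%). Without mdx library 1 these numbers were 2112 (13.7%) and 1944 (12.6%). An unadjusted p below 0.05 was reached by 1951 genes, 973 higher and 978 lower.

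The counts of calls rest on single libraries. Without wildtype library 1, 14 genes rose and 10 fell, without wildtype library 2 the counts were 5 and 4, and without wildtype library 3 they were 3 and 2. Leaving out mdx library 2 gave 63 and 30, and leaving out mdx library 3 gave 5 and 4. Leaving out a library of the mdx GTx-026 group, which enters the fit only through the pooled spread, gave 16 and 18 (library 1), 8 and 6 (library 2) or 14 and 16 (library 3). A fit of the 6 vehicle libraries alone called 2 higher and 3 lower. Under the scaling of the deposited table the split was 28 higher to 10 lower and the median of all genes was 0.16. Gcsh, Gm9855, Htra4, LOC102641654 and Prune2 were called whichever of the 9 libraries was left out, and each of the other called genes lost its call without at least 1 of them.

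Dmd (chromosome X, 82948870 to 85206141, GRCm38), the mutated gene, was at 41.4, 60.03 and 51.0 CPM in wildtype and at 11.4, 21.7 and 21.7 CPM in mdx. The groups were separate, with the lowest value in mdx library 1. The log2 fold change was −1.47 (SE 0.25), just short of the threshold (limma, adjusted p = 0.0505). It passed without mdx library 1 (−1.17, adjusted p = 0.0404) or mdx library 2 (adjusted p = 0.0472) and under the deposited scaling (−1.29, adjusted p = 0.0196), and over all alternatives the adjusted p ran from 0.00894 to 0.258. The mdx mutation is a stop codon, so the mRNA level is only an indirect check of the genotype labels.

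Of the 31 measured genes of the dystrophin complex and its partners, 15 were higher and 16 lower in mdx, with a median log2 fold change of −0.02 (0.17 without mdx library 1; 0.16 under the deposited scaling). None other than Dmd passed in either fit. Nos1, the neuronal nitric oxide synthase that docks on dystrophin through syntrophin, was at 56.6, 92.9 and 109 CPM in wildtype and 28.4, 47.6 and 33.5 CPM in mdx. Its groups were separate, with a log2 fold change of −1.20 (SE 0.27, adjusted p = 0.133). The syntrophins Sntb1 (log2 fold change 0.72) and Sntb2 (0.67) lay above wildtype in all 3 mdx libraries without passing.

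The largest rise was in the metallothioneins, small cysteine-rich proteins that bind zinc and copper and are induced by metals, glucocorticoids and stress. Mt2 (chromosome 8, 94172664 to 94173568) was at 2.91, 3.11 and 1.89 CPM in wildtype and at 26.9, 103 and 74.2 CPM in mdx. Every mdx library was far above wildtype, and mdx library 1 was the lowest of the 3. The log2 fold change was 4.06 (SE 0.41, adjusted p = 0.0069) and 4.62 without mdx library 1 (adjusted p = 0.000151). Mt1, its neighbour (chromosome 8, 94179082 to 94180327), was at 10.7, 6.90 and 8.40 CPM in wildtype and at 32.0, 138 and 96.1 CPM in mdx. The mdx libraries took the same order as in Mt2, with a log2 fold change of 3.00 (SE 0.43, adjusted p = 0.027). Among the 18 measured metallothioneins and zinc transporters no other gene passed, 11 were higher and 7 lower, and the median was 0.06 (0.07 without mdx library 1).

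The window of 250 bases before the start of Mt2 in RefSeq (chr8:94172368-94172617, plus strand, GRCm38.p6) is shown because Mt2 carried the largest rise; capitals mark the core of the metal response element (TGCACNC or TGCGCNC, searched on both strands), the letters bound by the metal-sensing factor MTF1.
Mt2: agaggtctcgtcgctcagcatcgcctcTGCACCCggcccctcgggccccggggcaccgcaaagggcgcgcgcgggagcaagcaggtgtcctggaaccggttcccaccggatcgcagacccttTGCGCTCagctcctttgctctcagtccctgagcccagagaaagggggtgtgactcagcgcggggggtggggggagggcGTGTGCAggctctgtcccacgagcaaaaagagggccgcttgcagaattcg
The window held 3 cores, and that of Mt1 (chr8:94178839-94179088) held 1. The Mt2 window ends before the gene start given above, and the Mt1 window just after it. These counts depend on the start used, bases further downstream were not searched, and the 2 genes are not compared by them. Of 32851 promoters of the same length 21.4% held at least 1 core and 1.26% held 3 or more. The matches do not overlap one another, and a match is a description of letters, not of binding.

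Lgals3 (chromosome 14, 47367751 to 47386160) encodes galectin-3, a lectin abundant in phagocytic macrophages. It was at 7.52, 5.23 and 3.24 CPM in wildtype and at 189, 27.5 and 114 CPM in mdx (log2 fold change 3.81, SE 0.58, adjusted p = 0.0336). The mdx libraries spread widely but none reached down to wildtype. Prune2 (chromosome 19, 16956118 to 17223932) went from 1.80, 4.85 and 2.18 CPM to 23.9, 47.2 and 44.6 CPM (3.35, SE 0.32, adjusted p = 0.00532). It kept its call without any single library, and over all 19 alternatives its adjusted p reached at most 0.0595. Igfn1 (chromosome 1, 135953578 to 136006342), a Z-disc protein with immunoglobulin and fibronectin domains, was at 22.1, 22.3 and 9.60 CPM in wildtype and at 70.5, 247 and 215 CPM in mdx (3.13, SE 0.53, adjusted p = 0.0499). Again mdx library 1 was nearest to wildtype, and without it the value was 3.70 (adjusted p = 0.0141).

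Igf2 (chromosome 7, 142650766 to 142666816), the insulin-like growth factor of fetal tissue and regenerating muscle, was at 20.3, 16.6 and 24.7 CPM in wildtype and at 92.8, 109 and 175 CPM in mdx (log2 fold change 2.52, SE 0.35, adjusted p = 0.0241). The groups were separate, and the rise without mdx library 1 was 2.71. Maged2 (chromosome X, 150806370 to 150814345), a MAGE family protein, was very even in wildtype at 16.7, 18.0 and 16.7 CPM and stood at 46.5, 64.8 and 84.0 CPM in mdx (1.83, SE 0.19, adjusted p = 0.0069). Serpinb6a (chromosome 13, 33917918 to 34002794), an intracellular protease inhibitor, was the most abundant gene that rose, at 172, 148 and 146 CPM in wildtype and 289, 401 and 487 CPM in mdx (1.30, SE 0.20, adjusted p = 0.0336). Its exons overlap those of Nqo2, Ripk1 and 1110046J04Rik on the other strand, and use of strand in the counting is not given in the sources used here. Those 3 genes lay at 24.9 CPM or less in every vehicle library (Nqo2 being the highest).

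Further genes rose in both fits. The giant scaffold protein gene Ahnak2 had a log2 fold change of 2.28, the muscle lysine methyltransferase Mettl21e 2.24, and the membrane protein gene Ctxn3 1.92. The aldo-keto reductase Akr1b8 had 1.81, and the FGF receptor-like protein Fgfrl1 1.57. Ppt1, a lysosomal thioesterase, was at 14.0, 16.4 and 12.3 CPM in wildtype and at 53.8, 30.9 and 41.2 CPM in mdx (1.47, SE 0.20, adjusted p = 0.0239). Its exons overlap those of Cap1 on the other strand, and Cap1 was at 100 CPM in mdx library 1 and at 24.1 to 41.0 CPM in the other mdx libraries. Whether reads of Cap1 enter the values of Ppt1 was not tested. The matrix-associated membrane protein gene Mxra8 (1.39) and the small proteoglycan gene Podn (1.17) rose, as did the actin-bound Rai14 (1.23) and the membrane-bending Baiap2l1 (1.23), whose exons overlap Gm10389 and the pair Bri3 and Gm15708 on the other strand. The remaining genes of this group were the predicted transcripts LOC102641654 (2.47) and LOC102641597 (1.89), the acetylcholine receptor subunit Chrnb1, and the copies Gm9855 and Eno1b.

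Reads of Gm9855 and Eno1b cannot be told safely from those of their parent genes. Gm9855 (chromosome 10, 42054113 to 42055306), a processed pseudogene of the DNA glycosylase Tdg, rose from 2.60, 2.70 and 2.91 CPM to 11.4, 12.4 and 13.7 CPM (log2 fold change 1.85, SE 0.14, adjusted p = 0.00189). Tdg (chromosome 10, 82629828 to 82650799) fell over the same libraries, from 17.5, 18.9 and 22.5 CPM to 4.26, 8.05 and 6.65 CPM (−1.52, SE 0.22, adjusted p = 0.027). The sum of both differed by −0.24 on the log2 scale and by −0.12 without mdx library 1, so most of the difference in each was not seen in the sum. Eno1b, a retrotransposed copy of the glycolytic enolase Eno1, rose by 1.18, and the sum of Eno1 and Eno1b was higher by 0.51.

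**Figure D2:**
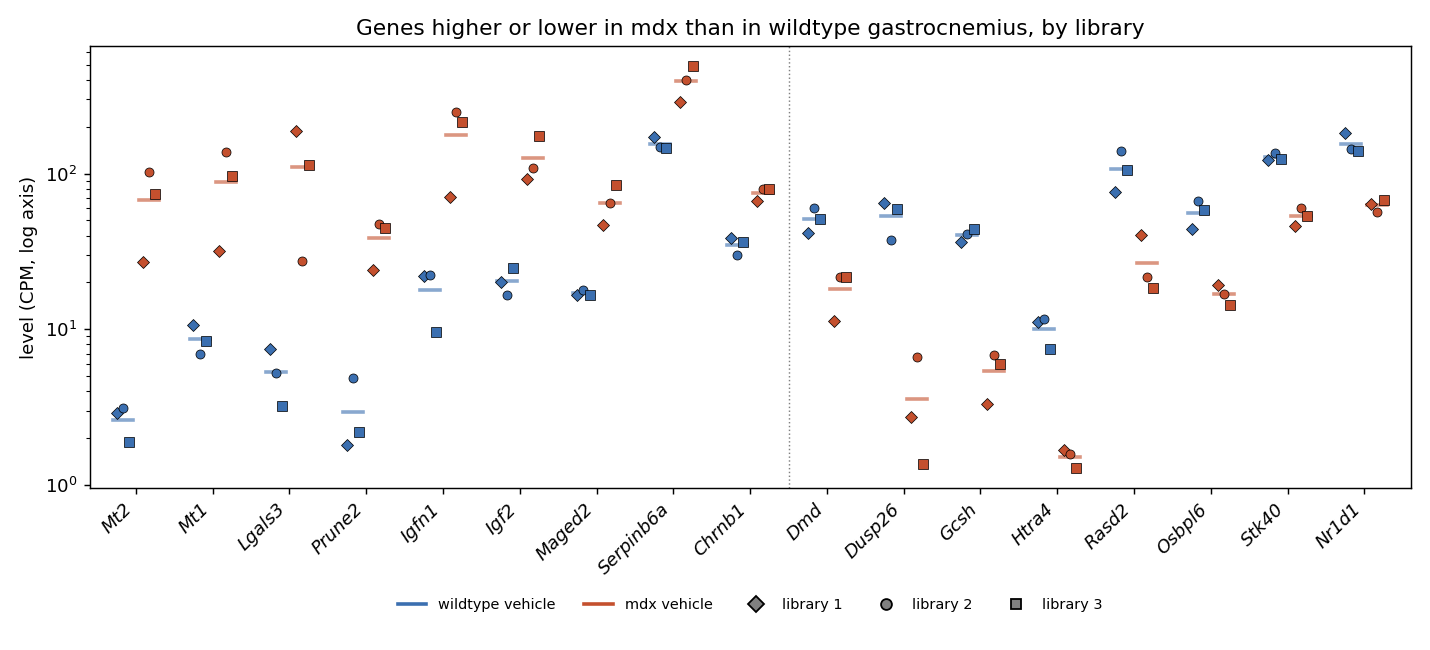
Levels (CPM, log axis) of selected genes in the 3 wildtype vehicle (blue) and 3 mdx vehicle (orange) libraries; points are libraries, marked by number, and bars are group means, with genes higher in mdx left of the dotted line and genes lower in mdx right of it. No gene shown has overlapping groups; mdx library 1 (diamond) is the lowest mdx library in Mt2, Mt1, Igfn1 and Igf2 and the highest in Lgals3.

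The largest fall was in Dusp26 (chromosome 8, 31089471 to 31097047), a dual-specificity phosphatase. It was at 64.6, 37.4 and 59.2 CPM in wildtype and at 2.73, 6.67 and 1.36 CPM in mdx (log2 fold change −3.71, SE 0.42, adjusted p = 0.0113). All mdx libraries were low, and without mdx library 1 the value was −3.65. Gcsh (chromosome 8, 116981810 to 116993537), the H protein that carries the aminomethyl group in the mitochondrial glycine cleavage system, was at 36.4, 41.2 and 43.9 CPM in wildtype and at 3.31, 6.87 and 6.03 CPM in mdx (−2.74, SE 0.24, adjusted p = 0.00329). It was called under all 19 alternatives, with an adjusted p of at most 0.0319. Gldc, the decarboxylase of the same system, is listed at 0 in all vehicle libraries, and of the 20 measured genes of glycine, serine and one-carbon metabolism no other passed (median 0.04, and −0.08 without mdx library 1).

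Htra4 (chromosome 8, 25024929 to 25038962), a serine protease of the HtrA family, was at 11.2, 11.6 and 7.49 CPM in wildtype and at 1.69, 1.59 and 1.30 CPM in mdx (log2 fold change −2.12, SE 0.22, adjusted p = 0.0069). Its mdx libraries were nearly equal. Rasd2 (chromosome 8, 75213944 to 75224113), a small GTP-binding protein, was at 75.8, 140 and 105 CPM in wildtype and at 40.3, 21.5 and 18.4 CPM in mdx (−1.997, SE 0.31, adjusted p = 0.0344). Osbpl6 (chromosome 2, 76406508 to 76600647), a sterol-binding protein, was at 43.8, 66.8 and 58.0 CPM against 19.3, 16.8 and 14.3 CPM (−1.67, SE 0.21, adjusted p = 0.0211). In these 2 genes mdx library 1 was the highest of the mdx libraries, so the fall was larger without it (−2.32 and −1.77).

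Among the other genes that fell in both fits, Stk40 (chromosome 4, 126103957 to 126141029), a kinase-like protein, was tight in both groups at 122, 135 and 124 CPM against 45.9, 60.05 and 53.8 CPM (log2 fold change −1.25, SE 0.14, adjusted p = 0.0113). Neither group reached into the other. Tuba8, a muscle-enriched alpha tubulin, was at 311, 294 and 354 CPM against 119, 139 and 158 CPM (−1.21, SE 0.17, adjusted p = 0.0244). Cacng7, named as a calcium channel subunit, fell by 1.38 and the heparan sulfate sulfotransferase Hs3st5 by 1.05. The SOCS-box protein Asb4 fell by 1.09, Kazald1 by 1.28 and the limb homeobox gene Hoxd10 by 1.20. The uncharacterised 9030617O03Rik (−1.14) and LOC105242600 (−1.13) also fell in both fits.

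Nr1d1 (chromosome 11, 98767932 to 98775333), the nuclear receptor REV-ERBα that represses the clock and lipid genes, was at 181, 143 and 139 CPM in wildtype and at 64.1, 56.7 and 67.3 CPM in mdx (log2 fold change −1.28, SE 0.17, adjusted p = 0.0227). The exons of Nr1d1 overlap those of Thra on the other strand, and Thra was at 57.9, 66.9 and 64.3 CPM against 35.5, 46.2 and 59.5 CPM (−0.44, adjusted p = 0.41). Of 22 measured clock genes, Nr1d1 was the only one called in either fit. Hlf, a clock-driven transcription factor (−0.56, adjusted p = 0.298), and Clock itself (−0.46, adjusted p = 0.275) were separate below wildtype, 17 of the 22 were lower, and the median was −0.10 (0.08 under the deposited scaling). Without mdx library 1 the tally turned, with 13 higher and 9 lower and a median of 0.0082. The time of day of sampling is not in the labels.

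Library 1 of mdx decided 28 further calls. Its presence was needed for 12: Serpinb1a, S100a4, Myo5a, Ttyh2, Runx1 and Uap1l1 among those higher, and Cish, Rhou, Ccdc85c, Plet1os, 1190007I07Rik and Wwox among those lower. Their adjusted p without it ran from 0.0549 (Plet1os and Ttyh2) to 0.101 (Cish), and their fold changes stayed close. S100a4, a calcium-binding protein of fibroblasts and macrophages, was at 10.8, 10.3 and 7.75 CPM in wildtype and at 52.0, 24.3 and 58.6 CPM in mdx (log2 fold change 2.03, and 1.88 without library 1, adjusted p = 0.0684). Cish, a suppressor of cytokine signalling induced by STAT5, was at 39.4, 62.4 and 72.6 CPM against 7.48, 18.99 and 8.53 CPM (−2.29, and −2.05 without library 1). Both genes had separate groups with and without that library.

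The 16 genes called only without mdx library 1 were 13 higher and 3 lower. Ddit4, an mTORC1 inhibitor induced by stress and glucocorticoids, was at 6.17, 4.17 and 5.20 CPM in wildtype and at 9.53, 20.4 and 49.1 CPM in mdx (log2 fold change 1.87, and 2.42 without library 1, adjusted p = 0.0431). Rrad, a GTPase that restrains calcium channels, was at 3.78, 6.56 and 2.84 CPM against 9.53, 46.5 and 21.3 CPM (2.11, and 2.65 without library 1, adjusted p = 0.0327). In both, library 1 lay nearest to wildtype. In Map1lc3a, an autophagosome protein, library 1 at 155 CPM lay inside the wildtype range of 128 to 167 CPM, while mdx libraries 2 and 3 were at 284 and 317 CPM. The others higher were Chrna1, Adamts5, Htra3, Tmem37, Slc4a3, Plagl1, Kcne1l, Col4a5, Glul and Arrdc3. Those lower were Dmd, LOC105242539 and the cadherin gene Cdh4, at 42.9, 31.2 and 23.1 CPM against 11.7, 3.27 and 3.79 CPM (−2.34, and −2.84 without library 1, adjusted p = 0.0404).

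**Figure D3:**
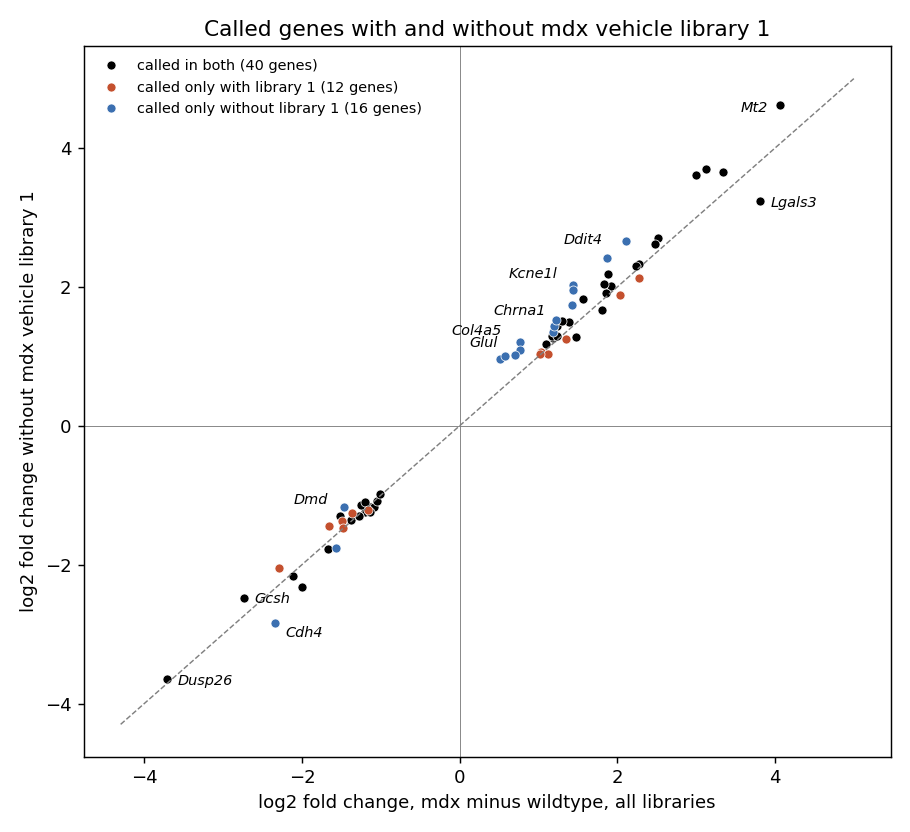
Log2 fold change of the called genes with all libraries (x axis) against the value without mdx vehicle library 1 (y axis); points are genes, coloured by the fit in which they were called, and the dashed line marks equal values. Of the 68 genes, 40 were called in both fits; the higher genes called only without library 1 (blue) lie above the line, as Glul does (0.58 and 1.01).

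Genes of the acetylcholine receptor and the neuromuscular junction were mostly higher in mdx. Of 20 measured members 16 were higher, 9 with separate groups (45% of members, against 7.97% of all tested genes), and the median log2 fold change was 0.43 (0.51 without mdx library 1), against 0.01 over all genes. Chrnb1 (chromosome 11, 69784036 to 69795943), the β subunit, was at 38.7, 30.1 and 36.2 CPM in wildtype and at 66.8, 80.0 and 79.7 CPM in mdx (1.09, SE 0.16, adjusted p = 0.0286), and was the one member that passed with all libraries. Chrna1 (chromosome 2, 73563215 to 73580338), the α subunit that binds acetylcholine, was at 30.0, 28.9 and 27.4 CPM against 47.9, 66.1 and 96.5 CPM (1.20, SE 0.21, adjusted p = 0.0648) and passed without mdx library 1 (1.44, adjusted p = 0.0131). Chrnd, the δ subunit, was at 3.53, 3.21 and 3.60 CPM against 4.93, 6.81 and 13.4 CPM (0.98, adjusted p = 0.238). All 3 subunits were separate, and mdx library 1 was the lowest mdx library in each.

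Chrne, the ε subunit of the adult receptor, was at 20.6, 16.9 and 23.4 CPM in wildtype and at 38.5, 39.2 and 33.6 CPM in mdx (log2 fold change 0.85, adjusted p = 0.289). The fetal γ subunit Chrng is listed at 0 in all wildtype libraries and at 0.551, 1.42 and 5.97 CPM in mdx, so it entered no test. The neuregulin receptor gene Erbb2 was separate (1.01, adjusted p = 0.154). Etv4, a transcription factor of synaptic nuclei, is likewise listed at 0 in wildtype and at 1.56, 1.83 and 2.72 CPM in mdx. Nerve and Schwann cell markers as a list had a median of 0.02 with 6 of 11 higher, and of −0.02 with 5 higher without mdx library 1.

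The 250 bases before the start of Chrna1 in RefSeq (chr2:73580339-73580588, minus strand, GRCm38.p6, written along the gene) are shown as the promoter of a receptor gene that was higher together with Chrnb1 and Chrnd; capitals mark the E-box CAGCTG, letters that myogenic basic helix-loop-helix factors bind.
Chrna1: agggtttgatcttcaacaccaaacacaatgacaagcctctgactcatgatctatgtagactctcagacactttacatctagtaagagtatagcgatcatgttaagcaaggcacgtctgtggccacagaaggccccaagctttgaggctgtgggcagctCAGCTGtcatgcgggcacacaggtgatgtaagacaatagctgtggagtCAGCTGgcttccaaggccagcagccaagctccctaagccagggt
This window held 2 such E-boxes, that of Chrne held 1 and that of Chrnb1 held 0. Another E-box, CACCTG, found in 17.2% of the promoters, is not marked or counted here. Its letters on the other strand, CAGGTG, stand in the windows of both Chrna1 and Chrnb1. The letters read the same on both strands and the matches do not overlap, and 13% of the 32851 promoters held at least 1.

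Embryonic and regenerating-fibre genes split with library 1. Of 26 measured members 13 were higher and 13 lower with a median log2 fold change of 0.03, and without mdx library 1, 16 were higher with a median of 0.63. Igf2 alone passed. Myl4, the embryonic and atrial myosin light chain, was at 12.5, 16.7 and 14.7 CPM in wildtype and at 43.1, 47.5 and 168 CPM in mdx (2.199, SE 0.46, adjusted p = 0.11). Sln, sarcolipin, a regulator of the sarcoplasmic calcium pump, was at 13.3, 16.9 and 1.67 CPM against 52.2, 65.7 and 133 CPM (3.15, SE 0.73, adjusted p = 0.148). Both were separate, as was the stretch-responsive Ankrd1 (1.84, adjusted p = 0.089), and mdx library 3 was the highest in all 3.

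Cardiac troponin T, Tnnt2, which is also made by embryonic skeletal fibres, is listed at 0 in wildtype and at 6.46, 8.73 and 34.0 CPM in mdx. A 0 here means listed at 0, since records at 0 were so in whole groups, and no fold is given. The embryonic myosin Myh3 was at 58.6, 52.5 and 56.5 CPM in wildtype and at 21.9, 102 and 193 CPM in mdx, with mdx library 1 below and mdx libraries 2 and 3 above wildtype; it is named after its values were seen. Denervation-responsive genes, which overlap this list, had 13 of 20 higher with a median of 0.59 (0.94 without library 1). Mt1, Mt2 and the transcription factor gene Runx1 (1.03, adjusted p = 0.0369) were the called members, and Runx1 lost its call without mdx library 1. Satellite cell and myogenic regulators were evenly split, 12 of 27 higher with a median of −0.04 (0.13 under the deposited scaling), and none passed. Without mdx library 1, 16 of the 27 were higher with a median of 0.08. Among its members with separate groups were the Notch target Hes1 (0.70), Six4 (−0.55) and the receptor Fgfr4 (0.47).

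**Figure D4:**
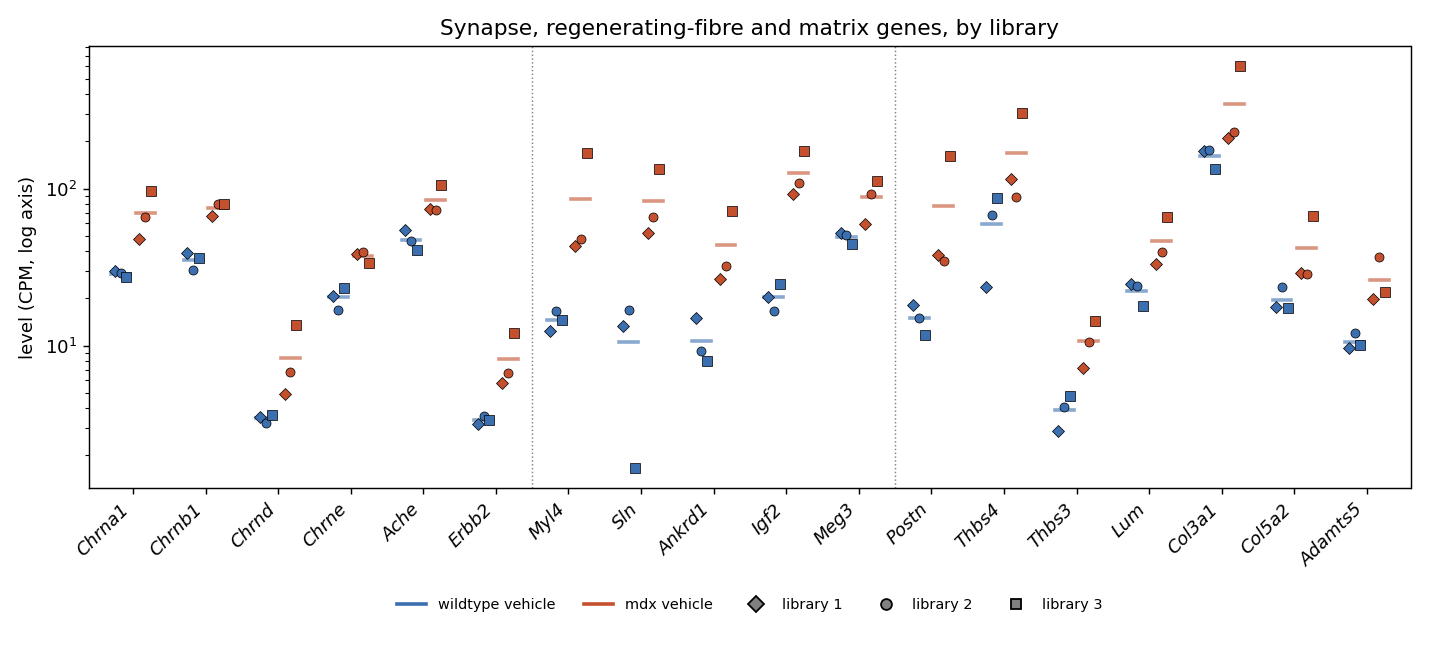
Levels (CPM, log axis) of synapse genes (left), regenerating-fibre genes (middle) and matrix genes (right) in wildtype vehicle (blue) and mdx vehicle (orange) libraries; points are libraries and bars are group means. All genes shown have separate groups, and mdx library 3 (orange square) is the highest library in Myl4, Sln, Ankrd1, Postn, Thbs4 and Col3a1.

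Genes of phagocytic macrophages were higher in mdx in 11 of 12 measured members, with a median log2 fold change of 1.597 and of 0.93 without mdx library 1. The median log2 difference from the wildtype mean over these genes was 2.61, 0.29 and 1.67 in mdx libraries 1 to 3. In wildtype it was 0.43, 0.02 and −0.63, so mdx library 2 lay inside the wildtype range. Lgals3 alone passed, and 4 members were separate (33.3%, against 7.97% of all tested genes). Gpnmb, a glycoprotein of lipid-laden phagocytes, was at 1.63, 1.47 and 2.40 CPM in wildtype and at 422, 6.70 and 47.7 CPM in mdx (4.27, SE 1.15, adjusted p = 0.201). Its value in mdx library 1 was the highest by far, and without it the difference was 2.79 (adjusted p = 0.207). The tetraspanin genes Cd9 (0.98) and Cd63 (0.64) were separate too. Trem2, a lipid receptor of the same cells, is listed at 0 in wildtype and at 25.2, 2.36 and 12.8 CPM in mdx.

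Receptors of resident macrophages and monocytes were higher in 12 of 14, with a median of 0.51 (0.35 without mdx library 1), and none passed. Here too mdx library 2 (median difference 0.10) lay inside the wildtype range, below wildtype library 2 (0.33). The growth factor receptor Csf1r was at 9.32, 9.98 and 4.95 CPM in wildtype and 24.6, 10.3 and 27.1 CPM in mdx, a narrow separation (1.20, adjusted p = 0.24), and the Fc receptor Fcgr3 had 1.43 (adjusted p = 0.19). Complement components were higher in 15 of 17 with a median of 0.66 (0.50 without library 1), led by the receptor C3ar1 at 1.45, 3.07 and 1.27 CPM against 12.8, 4.16 and 9.15 CPM (1.66, adjusted p = 0.139). The median difference of the complement list was 0.06 in mdx library 2, again below wildtype library 2 (0.34). Chemokines and cytokines were higher in 9 of 13 (median 0.52) and in 7 without mdx library 1 (median 0.38), led by Cxcl14 at 25.4, 28.4 and 34.7 CPM against 57.1, 69.1 and 89.4 CPM (1.24, adjusted p = 0.119). Neutrophil and mast cell markers had 5 measured members, 4 higher, with a median of 0.22 (0.0093 without mdx library 1, with 3 higher). Interferon-stimulated genes were lower in 14 of 21 with a median of −0.13 (0.05 under the deposited scaling) and in 17 without mdx library 1 (median −0.44). Their summed level was 922 CPM in wildtype library 2 and between 97.8 and 262 CPM in the other 5, and its part in these medians was not tested.

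Lymphoid markers moved with libraries rather than with genotype. All 6 measured members were higher in mdx with all libraries, with a median of 0.71, and 5 of 6 were lower without mdx library 1, with a median of −0.57. No member had separate groups. Their median difference from the wildtype mean was 3.12 in mdx library 1 and 1.41 in wildtype library 1, and between −0.83 and −0.16 in the other 4. Only these 6 of the 33 listed lymphoid genes were measured. Antigen presentation genes were also highest in mdx library 1 (median difference 1.44), but wildtype library 2 came next (0.89) and wildtype library 3 was the lowest (−1.57), and their list median was 0.09 (−0.44 without mdx library 1). The part of these cells in the macrophage and lysosome results was not tested, and the phagocyte values without mdx library 1 stand beside each result.

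Lysosomal genes were higher in 35 of 40 with a median of 0.33 (0.23 without mdx library 1). The median difference in mdx library 2 was 0.05, inside the wildtype range and below wildtype library 1 (0.12). Ppt1, whose exons overlap those of Cap1, passed, and 8 were separate above wildtype (20%, against 7.97% of all tested genes). Ctsk, the collagen-degrading cathepsin K, was even in wildtype at 4.61, 4.61 and 4.11 CPM and stood at 119, 9.35 and 25.01 CPM in mdx (2.55, SE 0.73, adjusted p = 0.225). The proteases Lgmn (1.02, adjusted p = 0.139) and Ctsb (0.68, adjusted p = 0.279) were separate above wildtype. S100 and annexin genes, calcium-binding proteins several of which act in membrane repair, were higher in 14 of 16, and 7 were separate (43.8%, against 7.97% of all tested genes), with a median of 0.36 (0.48 without library 1). Anxa1 was at 7.76, 12.3 and 10.1 CPM against 76.0, 18.6 and 40.9 CPM (1.87, adjusted p = 0.149), Anxa4 at 16.4, 12.5 and 8.98 CPM against 32.5, 24.5 and 36.8 CPM (1.26, adjusted p = 0.0756), and Anxa2 had 0.99 (adjusted p = 0.255).

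Matrix genes were higher in most members, with mdx library 3 the highest. Of 24 measured collagen genes 21 were higher (median 0.45, and 0.60 without mdx library 1), 6 of them separate (25%, against 7.97% of all tested genes), and none passed with all libraries. Col3a1, a fibrillar collagen, was at 172, 176 and 133 CPM in wildtype and at 209, 228 and 599 CPM in mdx (0.94, adjusted p = 0.375). Col23a1, a transmembrane collagen, was at 3.12, 3.14 and 2.62 CPM against 8.88, 5.96 and 15.9 CPM (1.41, adjusted p = 0.119). The separation of Col3a1 was narrow in mdx libraries 1 and 2. Col5a2 (0.95) and Col8a1 (0.89) were separate as well, and Col4a5 of the basement membrane passed without library 1 (1.21, adjusted p = 0.0404).

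Of 38 matrix glycoproteins and proteoglycans 33 were higher, with a median of 0.39 and 5 separate (13.2%, against 7.97% of all tested genes). Without mdx library 1 the median was 0.62 and 17 were separate, where 13.7% of all tested genes were. Postn, periostin, a protein of fibrotic matrix, was at 18.0, 15.1 and 11.6 CPM in wildtype and at 37.5, 34.8 and 161 CPM in mdx (1.95, SE 0.53, adjusted p = 0.205). Thbs4, a thrombospondin of muscle and tendon, was at 23.5, 67.4 and 86.5 CPM against 116, 87.8 and 302 CPM (1.47, adjusted p = 0.321), where mdx library 2 barely exceeded wildtype. Thbs3 had 1.23 (adjusted p = 0.119) and the proteoglycan Lum 0.97 (adjusted p = 0.207).

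Among 27 crosslinking and remodelling enzymes 21 were higher with a median of 0.32 (0.47 without mdx library 1). Adamts5, an aggrecan-cleaving protease, was at 9.63, 12.1 and 10.1 CPM against 19.8, 36.9 and 21.9 CPM (1.18, adjusted p = 0.0692) and passed without mdx library 1 (1.35, adjusted p = 0.0431). The collagen crosslinker Lox (1.06) was separate, and the inhibitor Timp1 is listed at 0 in wildtype and at 2.30, 1.56 and 4.28 CPM in mdx. Members of the TGF-beta pathway were higher in 13 of 21 (median 0.12, and 0.17 without mdx library 1), with the target Tgfbi at 17.1, 17.7 and 12.2 CPM against 36.2, 25.1 and 37.1 CPM (1.02, adjusted p = 0.173). Markers of fibro-adipogenic progenitors, the cells that make much of this matrix, were higher in 16 of 19 (median 0.36, and 0.53 without mdx library 1), with Pdgfra at 8.83, 12.1 and 10.2 CPM against 13.2, 18.5 and 20.6 CPM (0.69, adjusted p = 0.236). Adipocyte genes followed single libraries, with medians of 1.84 in wildtype library 1 and 1.09 in mdx library 3 and below −0.80 in the other 4; the list median was −0.26 with and 0.09 without mdx library 1.

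Genes of oxidative metabolism were mostly lower in mdx, and none passed. Fatty acid uptake and oxidation had 32 of 33 measured members lower, with a median log2 fold change of −0.54. Of these, 9 were separate (27.3%, against 8.49% of all tested genes). The median was −0.26 without mdx library 1, where 29 were lower. In mdx library 2 the median difference from the wildtype mean was −0.13, just above wildtype library 1 (−0.15). Lpl, the lipase that frees fatty acids from lipoproteins, was at 591, 494 and 572 CPM in wildtype and at 146, 360 and 336 CPM in mdx (−1.08, SE 0.51, adjusted p = 0.423). Acadm, the medium-chain dehydrogenase, was at 265, 315 and 373 CPM against 113, 247 and 216 CPM (−0.78, adjusted p = 0.343). The activating enzyme Acsl1 (−0.88) and the transporter Slc27a1 (−0.87) were separate in the same way. In all 4 genes mdx library 1 was the lowest, and none passed in either fit.

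All 29 measured genes of the tricarboxylic acid cycle and pyruvate dehydrogenase were lower, with a median of −0.42 (−0.19 without mdx library 1, 27 lower). Of them 2 were separate (6.90%, under the 8.49% of all tested genes). The median difference in mdx library 2 was 0.01, inside the wildtype range of −0.24 to 0.26. Suclg2, the GTP-forming subunit of succinyl-CoA ligase, was at 68.0, 83.7 and 90.6 CPM against 37.8, 51.0 and 44.1 CPM (−0.85, SE 0.18, adjusted p = 0.112) and the kinase Pdk1 had −0.54. Respiratory chain subunits were lower in 57 of 62 with a median of −0.35 (49 and −0.12 without mdx library 1), but none was separate, and mdx library 2 lay above the wildtype mean (median difference 0.09) while mdx libraries 1 and 3 lay below it (−0.75 and −0.33). The ATP synthase subunit Atp5b was at 2296, 2988 and 3599 CPM in wildtype and 1300, 2764 and 2324 CPM in mdx, so its groups overlapped. Mitochondrial ribosomal proteins were lower in 34 of 37 (median −0.22, and −0.09 without mdx library 1). Glycolysis and glycogen genes were lower in 29 of 33 (median −0.20) and in 20 without mdx library 1 (median −0.08), led by the regulatory kinase Pfkfb3 at 437, 261 and 249 CPM against 157, 88.7 and 95.9 CPM (−1.46, SE 0.35, adjusted p = 0.157). These medians stand beside that of the slow-fibre genes, −0.26 with and 0.94 without mdx library 1; the part of the low oxidative-fibre RNA of that library was not tested.

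Skeletal muscle identity genes were lower in 14 of 16 (median −0.36, and −0.13 without mdx library 1) and 6 were separate below wildtype (37.5%, against 8.49% of all tested genes). Myh4, the IIB myosin that dominates this muscle, was at 49281, 72454 and 66947 CPM in wildtype and at 34075, 46181 and 43009 CPM in mdx (−0.61, SE 0.89, adjusted p = 0.791). Ckm, the muscle creatine kinase, was at 32008, 38152 and 40133 CPM against 21969, 27983 and 26791 CPM (−0.52, adjusted p = 0.772). Both were separate, but the model's SE at these levels exceeds the difference. Fast-fibre contractile genes were lower in 16 of 19 (median −0.27, and −0.15 without mdx library 1), with Actn3 at −0.63 and Tnnc2 at −0.44. Of the slow-fibre genes 12 of 15 were lower with all libraries and 14 of 15 higher without mdx library 1, none with separate groups when all libraries were used.

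Excitation-contraction coupling genes were lower in 30 of 38 with 10 separate below wildtype (26.3%, against 8.49% of all tested genes), and the median was −0.15 (0.01 under the deposited scaling, and −0.06 without mdx library 1 with 23 lower). The release channel Ryr1 was at 3703, 5042 and 4883 CPM against 1908, 3608 and 3378 CPM (−0.66, adjusted p = 0.471), and the voltage sensor Cacna1s had −0.57 (adjusted p = 0.389). Cacng7, listed here for its name as a calcium channel γ subunit, was the member that passed. It was at 11.1, 12.7 and 11.9 CPM against 3.77, 2.98 and 5.38 CPM (adjusted p = 0.0236), and a part in the muscle voltage sensor was not tested. Its groups were separate by more than their own width.

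Growth and protein turnover lists had few members past the threshold. Mstn, myostatin, the inhibitor of muscle growth, was at 33.4, 56.6 and 58.8 CPM in wildtype and at 22.4, 21.6 and 21.4 CPM in mdx (−1.11, SE 0.24, adjusted p = 0.118), with mdx libraries nearly equal. Its antagonist Wfikkn2 had −0.85 (adjusted p = 0.161), and the list had 15 of 25 higher with a median of 0.11 (0.17 without mdx library 1). In the insulin-like growth factor system 15 of 24 were lower (median −0.08, and 0.10 under the deposited scaling) and, without mdx library 1, 15 were higher and 9 lower (median 0.03), with Igf2 rising and the binding protein subunit Igfals (−0.98, adjusted p = 0.155) and the insulin receptor Insr (−0.48) separate below. Atrophy, ubiquitin ligase and autophagy genes were lower in 24 of 33 (median −0.15, 0.03 under the deposited scaling and −0.04 without mdx library 1), with the kinase Ulk1 at −0.57 and the ligase Fbxo40 at −0.42, and Ddit4 and Map1lc3a passed without mdx library 1. Proteasome subunits were lower in 33 of 37 (median −0.16, 0.02 under the deposited scaling and −0.04 without mdx library 1). Cytosolic ribosomal proteins had a median of −0.0065 (0.18 under the deposited scaling), with 61 of 67 lower without mdx library 1 (median −0.17).

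Immediate early genes were higher in 21 of 25 with a median of 0.45 (0.56 without mdx library 1), and mdx library 2 was the highest (median difference 0.85). Zfp36, which destabilises cytokine mRNA, was at 18.3, 7.86 and 8.77 CPM in wildtype and at 38.1, 49.6 and 34.9 CPM in mdx (1.81, SE 0.41, adjusted p = 0.142). Junb was at 11.4, 5.71 and 7.31 CPM against 23.9, 68.0 and 18.0 CPM (1.85, adjusted p = 0.195), and the cytokine inhibitor Socs3 at 10.2, 4.78 and 3.42 CPM against 11.1, 69.3 and 17.1 CPM (1.92, adjusted p = 0.309). All 3 were separate, Socs3 by a narrow margin in mdx library 1. Cdkn1a, the p21 inhibitor of the cell cycle, was at 22.6, 12.5 and 18.7 CPM against 37.6, 35.4 and 77.5 CPM (1.38, adjusted p = 0.119), and Cdkn2a, which encodes p16 and p19, is listed at 0 in wildtype and at 5.42, 12.7 and 22.2 CPM in mdx. The list of p53 targets had 12 of 20 higher (median 0.16, and 0.04 without mdx library 1), with Ccng1 at 625, 823 and 777 CPM against 415, 532 and 470 CPM (−0.65, adjusted p = 0.239). Of 19 proliferation genes 12 were higher with a median of 0.10, and without mdx library 1, 9 were higher and 10 lower (median −0.0021).

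Antioxidant and NRF2 target genes were even, 18 higher and 18 lower with a median of 0.0018 (0.01 without mdx library 1), and 6 were separate below wildtype (16.7%, against 8.49% of all tested genes). Gsta4 (−0.89, adjusted p = 0.118) and Gstm2 (−0.77, adjusted p = 0.144), glutathione transferases, led these. Polyamine genes had 9 of 16 higher (median 0.02, and 0.09 without mdx library 1), with Amd1, the decarboxylase that makes the aminopropyl donor, at 110, 178 and 162 CPM against 90.0, 101 and 73.9 CPM (−0.74, adjusted p = 0.362), and reads of Amd1 and its copy Amd2 (−0.74) may be shared. Cholesterol genes had 21 of 36 higher with a median of 0.07 and, without mdx library 1, 15 higher and 21 lower with a median of −0.02. Of them 7 were separate below wildtype (19.4%, against 8.49% of all tested genes) and 2 above (5.56%, against 7.97%). Osbpl6 was the one called, and Fdft1, squalene synthase, was at −0.68 (adjusted p = 0.112). Unfolded protein response and heat shock genes were lower in 15 of 26 (median −0.11, 0.07 under the deposited scaling and 0.01 without mdx library 1, with 13), with Chac1 (−1.03) and the small heat shock protein gene Cryab (−0.86) separate. Endothelial genes were lower in 22 of 24 (median −0.35, and −0.21 without mdx library 1), with the VEGF receptor Kdr at 27.9, 22.8 and 47.8 CPM against 13.1, 13.4 and 17.3 CPM (−1.05, adjusted p = 0.285). Smooth muscle and pericyte genes (median −0.17, 0.01 under the deposited scaling and −0.0042 without mdx library 1) and erythroid genes (median −0.26, and −0.01 without mdx library 1) had no called member.

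**Figure D5:**
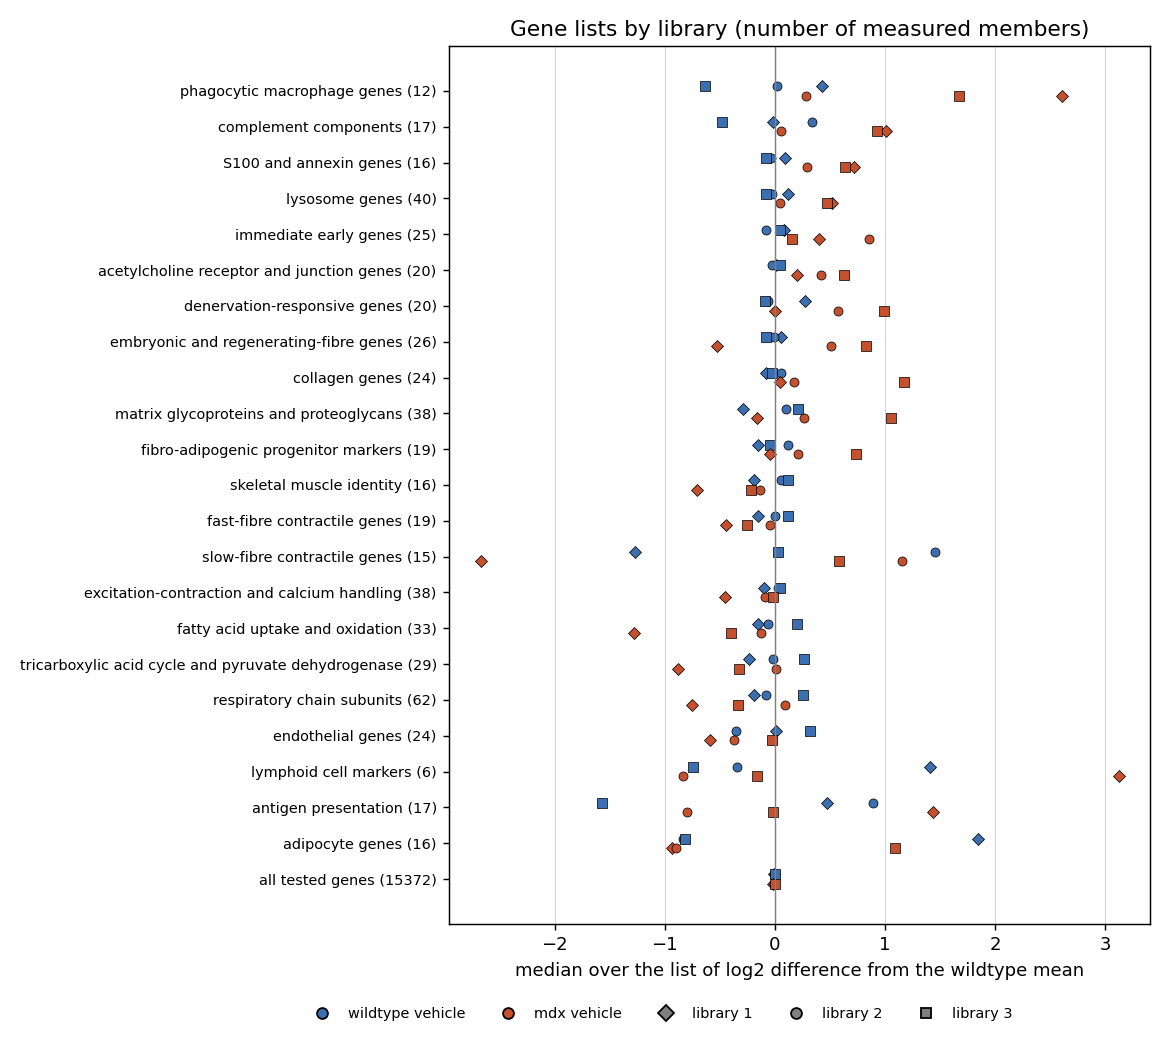
Median over each gene list of the log2 difference from the wildtype mean, for every wildtype vehicle (blue) and mdx vehicle (orange) library, with the number of measured members in brackets; the points of all tested genes lie near 0. The mdx libraries lie above all wildtype libraries in the S100 and annexin, the immediate early and the acetylcholine receptor lists. The value of mdx library 1 (orange diamond) reaches −2.67 in slow-fibre and 3.12 in lymphoid genes.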

How the data were processed

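The deposited table holds, per the file headers, a signal for each of 46442 sequence records in each library, with group means; the authors' deposited ratio of these means and the authors' deposited p-value were not used. In every library 1 constant turned the authors' signal below 10000 into whole numbers to within 0.1, and listed reads were taken as signal over that constant; a count model was not used. Per the submitters' processing notes the tools were DESeq2 1.6.3, HTSeq 0.6.1p1, TopHat2 2.0.13, SAMtools 0.1.19 and Bowtie2 2.2.4, on GRCm38.p3, with annotation, roles and use of strand not given in the sources used here. No record was at 0 in only part of a group, so a rule may have set low values to 0 by group; it is not given either.

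The 4 records without a symbol (0.000646% of the total) were left out. Records listed at 0 in a whole group (431) were also left out before the summing, whatever their gene. The remaining records were summed by symbol, and 9045 tested symbols had more than 1 record before this step. Genes with a record above 0 in all 9 libraries were tested (15372 of 15593 symbols). Libraries were rescaled by an unweighted trimmed mean of log ratios (30% of ratios and 5% of levels trimmed; factors 0.874 to 1.30). The test was limma with trend (version 3.58.1, R 4.3.3) on log2(CPM + 1), 3 group means over 9 libraries, 6 residual and 3.54 prior degrees of freedom. The same fit was run on simulated data with independent noise of the same spread in every library. That simulation holds no library that stands apart, so it cannot show how the test behaves with mdx library 1. The members and lists were chosen with earlier results of these data known. Named are Dmd, all genes called in both fits, the largest rises and falls at 5 CPM or more, the 10 genes highest and 10 lowest in mdx library 1, and in each list the called members and up to 4 with the largest differences and separate groups, or else the 2 most abundant; a few genes that this rule names are not reported here. Acta1, Cd8a, Ankrd2, Hbb-bs, Chrne, Myh3, the plotted Itgb2, Actn2, Ache and Meg3, and genes named for a shared exon or copy were chosen after their values were seen. Gene positions are from GENCODE M21 and promoters from RefSeq, GRCm38.p6. At 25.1 M listed reads or more, 1 CPM rests on over 25 reads.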

Additional observations from a re-analysis of the deposited data

How the results depend on the processing

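Of the 52 called genes, Gcsh, Gm9855, Htra4 and LOC102641654 were called in all 19 alternatives. Pseudocounts of 0.5 and 5, a mean of 1 CPM or more, the most abundant record, median-of-ratios scaling and a pseudocount of 1 deposited unit (chosen after seeing the data) left the counts within 1.5 times. With no filter 242 genes were higher, 90 lower, 319 called without mdx library 1 and 275 in both fits; 166 of the added symbols are listed at 0 in wildtype vehicle and above 0 in mdx vehicle. With vehicle libraries alone the counts were 2, 3, 12 and 4, and with array weights 169, 126, 97 and 92. Deposited scaling gave 10 lower. Without mdx library 1 the deposited scaling and the most abundant record gave 42 and 76. A threshold of 0.1 gave 64 in both fits. Leaving out single libraries gave 3 to 63 higher, 2 to 30 lower, 11 to 67 without mdx library 1 and 5 to 24 in both fits. The cause was not tested. Among genes that were not called, log2 fold changes reversed for Mcpt4 (0.104 under deposited scaling, 0.287 with array weights, 7.88e-06 with the deposited unit), Des (0.0147 under deposited scaling) and Myh7 (0.0437 with array weights). Without single libraries they ran from −1.469 to 1.311 in Myh7, −1.307 to 0.1054 in H2-K1, −0.5901 to 0.7019 in H2-D1, −0.6626 to 2.142 in Coro1a, −0.7496 to 1.945 in Cd52 and −0.3323 to 0.3916 in Mcpt4. The count models edgeR and DESeq2 were not run, since the table holds scaled values. No paired analysis was possible because the library numbers tie no samples together across groups.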

Other observations

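Genes listed at 0 in a whole group entered no test, and 166 symbols were at 0 in all wildtype vehicle libraries and above 0 in all mdx vehicle libraries, against 20 the other way. Beside those given above, Lilrb4, an inhibitory receptor of myeloid cells, was at 21.1, 3.27 and 4.70 CPM in mdx libraries 1 to 3. Hal, histidine ammonia-lyase, was at 5.88, 5.10 and 6.94 CPM, Msln, mesothelin, at 2.54, 1.86 and 12.4 CPM, and the collagen gene Col16a1 at 1.75, 2.21 and 6.23 CPM. In the other direction Efcab6 was at 10.8, 14.7 and 14.7 CPM in wildtype libraries 1 to 3 and listed at 0 in mdx, and 0610040J01Rik was at 4.36, 5.50 and 6.73 CPM. These genes were picked by their mean level or after their values were seen, and a listing of 0 does not give the number of reads behind it.

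Several very abundant transcripts differed between libraries of a group by more than between genotypes. Lars2, the symbol of mitochondrial leucyl-tRNA synthetase, was listed at 9351, 13646 and 6588 CPM in wildtype and at 2605, 18407 and 21892 CPM in mdx. Whether these reads come from the mRNA of that enzyme was not tested. LOC105245046 was at 9209, 8953 and 5290 CPM in wildtype and at 1864, 17764 and 15990 CPM in mdx, and Mir6240 at 438, 371 and 180 CPM against 67.4, 762 and 617 CPM. In all 3, mdx library 1 was the lowest and mdx libraries 2 and 3 were the highest of the 6.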
